A study of Homo sapiens with 2 samples.

Results

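The start sites described here are those of long noncoding RNA (lncRNA) genes that stand apart from protein-coding promoters. A member is the start of the canonical transcript of a GENCODE 44 lncRNA gene on chromosomes 1 to 22 that lies more than 5 kb from every start site of a protein-coding transcript. Of 18390 lncRNA genes on these chromosomes, 13237 (72.0%, 95% Wilson interval 71.3 to 72.6%) met this rule. A CpG island covered the start of 789 of them, and the other 12448 began outside islands. The values set beside them come from 8362 protein-coding starts outside islands and 10749 in islands, with 1 start per gene.

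Long noncoding RNAs are transcripts without a long open reading frame. Most are made by RNA polymerase II, capped and spliced like messenger RNAs, but many are restricted to few cell types and are produced at low levels. At an active promoter the polymerase and its factors hold a stretch of DNA free of nucleosomes, and the first nucleosome downstream, called the +1 nucleosome, is placed at a nearly fixed distance from the start. CpG islands, stretches rich in the CpG dinucleotide, disfavour nucleosomes and cover most promoters of widely used genes. Transcription was not measured in the files used here, so no member can be called active or silent, and the identity of the cells was not checked against marker genes.

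The map comes from MNase-seq, in which micrococcal nuclease removes the DNA between nucleosomes and the protected fragments are sequenced. The cells were ARPE-19, an established human line of retinal pigment epithelium, in normal culture and in interphase, with no other treatment. The labels list 2 batches of these cells, and the single deposited list of called positions does not separate them, so there is no value per batch and no replicate error. Each row of the list is 1 base with no height, and the read depth behind it is unknown. Chromosomes 1 to 22 held 2558490 distinct positions, or 0.928 per kb of determined sequence. Density varied with GC content, so ratios are also given against a GC expectation, which assigns each base the density of all bases on these chromosomes with like GC content in the surrounding 200 bp.

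The sequences of 4 members outside islands are shown as starts that do carry a downstream position. They were taken by rule as the first genes, in lists grouped by role, with a position in the 75 bp that begin 100 bp downstream, called the +1 window here because it holds the +1 nucleosome at coding genes. The hg38 intervals, each on the gene's own strand and from 50 bp before the start onward and 300 bases long, are chr17:35568066-35568365 (plus strand), chr18:58446193-58446492 (plus), chr11:57638326-57638625 (plus) and chr11:64893200-64893499 (minus). SNHG30 is a host gene of small nucleolar RNAs and the others are host genes of microRNAs. Each interval covers the start of the first exon, and none overlaps an exon of a protein-coding gene. Capitals mark the +1 window.
SNHG30: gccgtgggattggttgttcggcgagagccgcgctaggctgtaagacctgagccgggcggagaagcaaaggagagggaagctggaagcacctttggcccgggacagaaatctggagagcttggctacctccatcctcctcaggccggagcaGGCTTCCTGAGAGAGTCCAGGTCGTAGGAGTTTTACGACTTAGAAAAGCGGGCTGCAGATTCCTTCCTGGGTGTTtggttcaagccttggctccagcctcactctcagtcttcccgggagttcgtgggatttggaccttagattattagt
MIR122HG: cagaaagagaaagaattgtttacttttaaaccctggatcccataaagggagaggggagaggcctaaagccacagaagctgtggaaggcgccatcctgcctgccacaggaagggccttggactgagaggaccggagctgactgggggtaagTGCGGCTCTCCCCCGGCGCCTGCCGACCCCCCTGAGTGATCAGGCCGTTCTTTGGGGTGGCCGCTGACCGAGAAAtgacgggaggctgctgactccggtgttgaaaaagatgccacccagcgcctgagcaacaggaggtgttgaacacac
MIR130AHG: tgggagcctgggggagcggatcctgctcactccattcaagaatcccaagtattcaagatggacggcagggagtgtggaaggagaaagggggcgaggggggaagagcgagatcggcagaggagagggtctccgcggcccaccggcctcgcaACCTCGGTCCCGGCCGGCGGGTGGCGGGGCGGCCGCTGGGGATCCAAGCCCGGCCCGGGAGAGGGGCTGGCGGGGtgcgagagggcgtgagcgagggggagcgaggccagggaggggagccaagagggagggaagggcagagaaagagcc
MIR194-2HG: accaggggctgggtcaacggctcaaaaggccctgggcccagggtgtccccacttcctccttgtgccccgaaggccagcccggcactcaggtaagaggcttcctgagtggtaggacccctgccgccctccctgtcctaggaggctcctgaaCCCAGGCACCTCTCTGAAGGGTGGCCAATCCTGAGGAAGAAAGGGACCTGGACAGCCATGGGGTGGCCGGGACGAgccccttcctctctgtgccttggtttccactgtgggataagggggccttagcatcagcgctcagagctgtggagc
The position in the window lay 110 bp from the start in SNHG30, just short of 150 bp in MIR122HG, 121 bp in MIR130AHG and 144 bp in MIR194-2HG. The GC content of these intervals ran from 56.7% in SNHG30 to 70% in MIR130AHG, above the median of 47% for the 200 bp around all members outside islands.

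NEAT1, the RNA that scaffolds the nuclear bodies called paraspeckles, is shown as a start inside an island and was chosen after its values were seen. Its interval is chr11:65422748-65423047 on the plus strand of hg38, with the 12 CpG dinucleotides in capitals.
NEAT1: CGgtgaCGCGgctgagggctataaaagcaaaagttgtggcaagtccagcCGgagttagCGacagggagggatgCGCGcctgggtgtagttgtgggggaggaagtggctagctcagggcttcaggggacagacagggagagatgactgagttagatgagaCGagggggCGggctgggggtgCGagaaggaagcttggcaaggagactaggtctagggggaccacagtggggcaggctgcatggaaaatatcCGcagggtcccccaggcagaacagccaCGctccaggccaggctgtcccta
No position lay within 2000 bp of the NEAT1 start. A TATA box core, searched as TATAAA on the gene's strand from -40 to -20 bp, was present there. SNHG7, DLEU2 and ULK4P3 were the other members in islands with this match, 4 of 789 in all (0.507%, 95% Wilson interval 0.197 to 1.3%). Outside islands 162 of 12448 lncRNA starts (1.3%) held the match, against 543 of 8362 protein-coding starts (6.49%, 5.99 to 7.04%) and 1.86% of protein-coding starts in islands.

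Outside islands, density did not fall at the lncRNA starts, and the excess in the +1 window was small. Density from -200 to +50 bp was 1.2 positions per kb (3744 positions), above the flanks, which run from 1000 to 2000 bp upstream and downstream and had 1.07 per kb. Computed on each chromosome, the log2 ratio of start to flank was 0.16 ± 0.12 (SD, n = 22 chromosomes), higher on 21 of 22 (sign-flip permutation test over chromosomes, two-sided, p = 1e-05, adjusted 4e-05 over 16 comparisons). In steps of 25 bp the profile was a low, broad hump: it stood at 1.03 per kb in the step that begins at -150 bp, reached its highest value of 1.46 per kb from 50 to 75 bp (454 positions, 95% Poisson interval 1.33 to 1.6) and was back at 1.14 per kb from 150 to 175 bp. The 25-bp steps of the flanks ranged from 0.932 to 1.23 per kb. Chromosomes are not biological replicates, so these SDs and p-values describe the evenness of a difference over the chromosomes in 1 list, and the intervals cover counting error only.

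**Figure D1:**
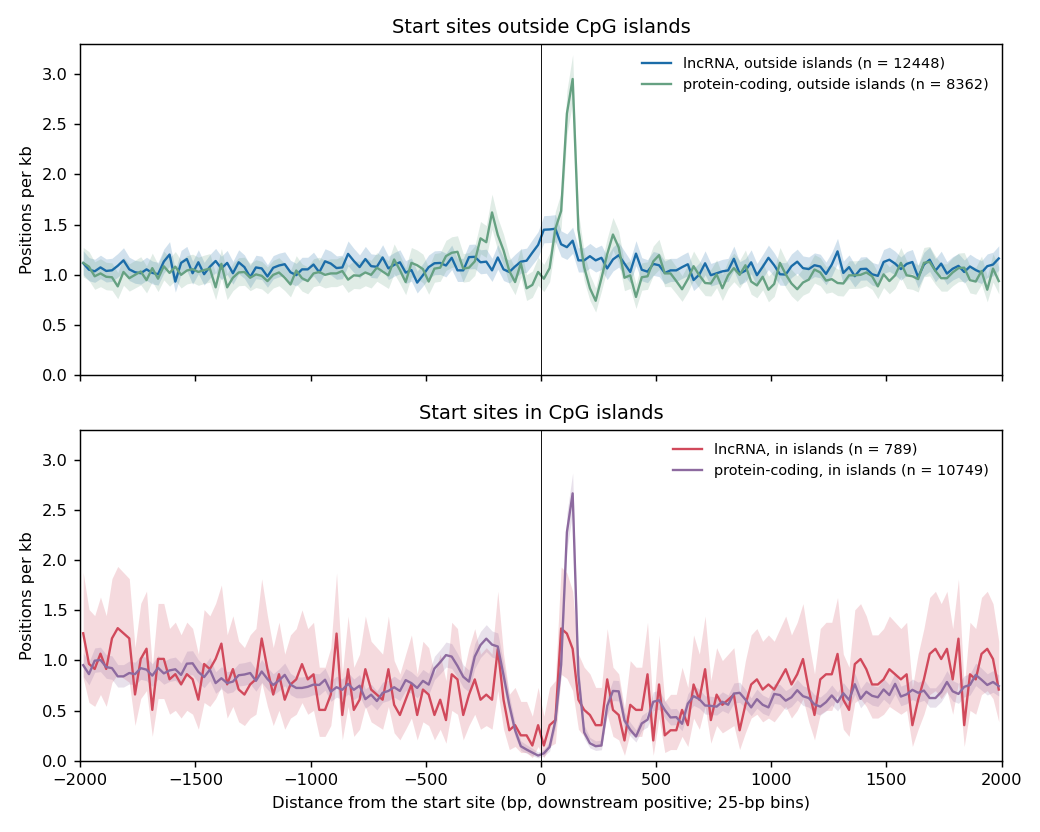
Positions per kb (vertical axis) against distance from the start site in 25-bp bins (horizontal axis), for lncRNA and protein-coding starts outside islands (top) and in islands (bottom), with shading for 95% Poisson intervals. Outside islands the lncRNA line stays between 0.922 and 1.46 per kb while the coding line peaks at 2.95 per kb, and in islands both lines dip at the start.

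The hump lay close to the GC maximum of the profile, and whether GC content accounts for it was not tested. GC content averaged over the members rose from 43.3% in the flanks to 48.7% from 25 to 50 bp after the start. Divided by the GC expectation, the profile between -400 and +400 bp stayed within 0.844 and 1.09 of it. The start-to-flank log2 ratio then turned to -0.069 ± 0.090 (permutation p = 0.0025).

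**Figure D2:**
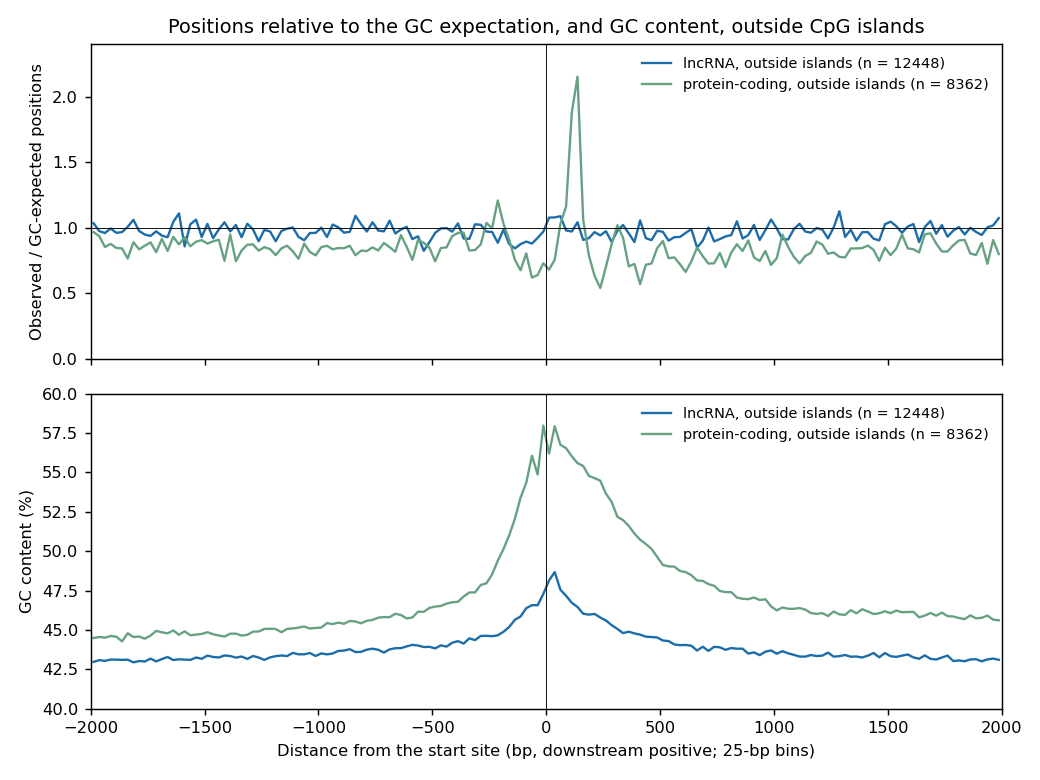
Observed positions divided by the GC expectation (top) and GC content in percent (bottom) against distance from the start, for lncRNA and protein-coding starts outside islands. The lncRNA line stays between 0.825 and 1.13, while the coding line falls to 0.542 and rises to 2.15.

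The clearest difference from protein-coding genes was the density of called positions in the +1 window. This window was chosen with earlier results of these data known and holds the coding maximum, so it favours the coding set. Within 200 bp of the start that maximum was 2.95 per kb, in the step that ends at 150 bp. The lncRNA maximum lay outside the window, from 50 to 75 bp, at 1.46 per kb. The tests below compare density in this window only, and the maxima were not tested. In the +1 window the lncRNA starts outside islands had 1.25 positions per kb (1170 positions, 95% Poisson interval 1.18 to 1.33), 1.17 times their flanks. The protein-coding starts outside islands had 2.34 per kb (1465 positions, 2.22 to 2.46), 2.35 times theirs. Per chromosome the log2 ratio to the flanks was 0.24 ± 0.22 for lncRNAs (SD, n = 22, higher on 20 of 22, permutation p = 0.00011, adjusted 0.000293) and 1.19 ± 0.30 for coding genes (higher on 22 of 22). The difference was -0.95 ± 0.36, below 0 on each of the 22 chromosomes (permutation p = 1e-05, adjusted 4e-05). The 2 sets overlapped on this scale only at their edges, the highest lncRNA chromosome at 0.70 and the lowest coding one at 0.67.

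With the GC expectation the small lncRNA excess was gone (-0.0014 ± 0.20, permutation p = 0.974), and the difference from coding genes was -0.94 ± 0.38. It was smallest where the start was poor in GC: among starts with under 45% GC in the surrounding 200 bp it was -0.37 ± 0.88 and did not pass (permutation p = 0.0586). There the coding starts themselves had only 1.38 times their flank density, against 1.15 times for lncRNAs. Divided by the GC expectation, the ratio in this class was 1.14 for both sets. At 55% GC or more the lncRNA starts (n = 2662) stood at 1.16 times and the coding starts (n = 4938) at 2.62 times their flanks, a log2 difference of -1.10 ± 0.61 (permutation p = 1e-05). Divided by the GC expectation, these ratios were 0.955 and 2.42. Against coding starts with no other coding gene's start within 5 kb the difference was -0.74 ± 0.32 (permutation p = 1e-05). Using the starts of all transcripts in both sets reduced the difference to -0.44 ± 0.39 (permutation p = 3e-05), and a looser island definition to -0.59 ± 0.38 (permutation p = 1e-05). How much of the lncRNA set is transcribed in these cells was not tested.

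In the window over the start a difference between these sets was not detectable. The log2 ratio of start to flank was 0.11 ± 0.25 for coding starts outside islands, and the difference, lncRNA minus coding, was 0.043 ± 0.29 (SD, n = 22, positive on 14 of 22, permutation p = 0.48, adjusted 0.512). Within 200 bp of the start, the lowest 25-bp step was 0.866 per kb at coding starts, from -75 to -50 bp. At lncRNA starts it was 1.03 per kb, from -150 to -125 bp. Divided by the GC expectation these steps were 0.621 and 0.844. The lowest flank steps were 0.852 and 0.932 per kb, or 0.727 and 0.859 of the GC expectation. Single steps were not tested. The flanks of lncRNA starts were slightly denser than those of coding starts, by 0.094 ± 0.16 on the log2 scale (higher on 16 of 22, permutation p = 0.0111, adjusted 0.0254). This did not hold against coding starts with no other coding gene's start within 5 kb, where it was 0.024 (permutation p = 0.496).

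**Figure D3:**
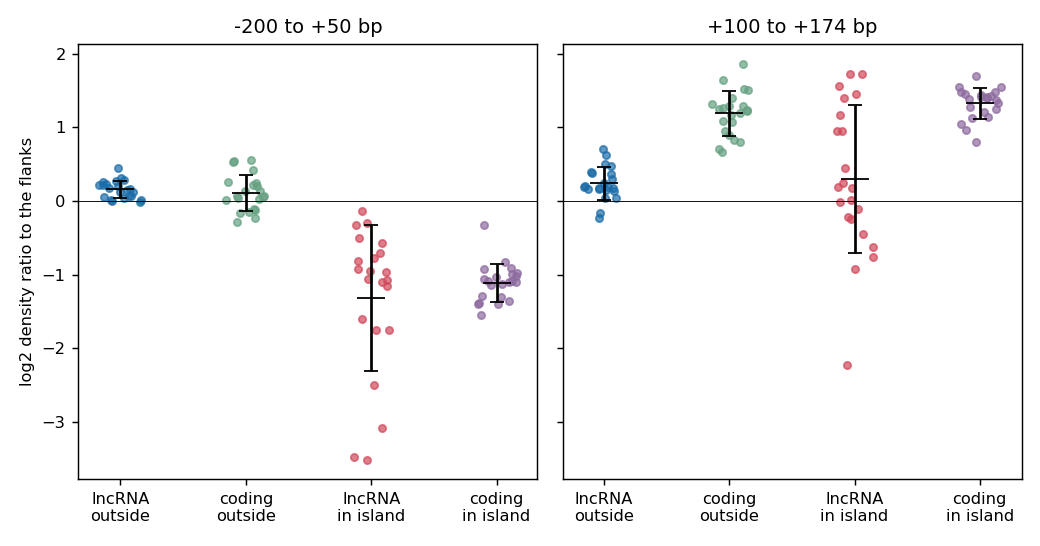
Log2 ratio of density to the flanks for the window from -200 to +50 bp (left) and the +1 window (right). Each point is 1 chromosome of 22, and the bars give the mean and SD; in the right panel coding starts outside islands lie between 0.67 and 1.86, and lncRNA starts outside islands lie between -0.23 and 0.70.

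At single starts the map is sparse. A median of 4 positions (quartiles 2 and 6) lay within 2000 bp of a member outside an island. A position fell in the +1 window at 1118 of 12448 members outside islands (8.98%, 95% Wilson interval 8.49 to 9.5%), against 16.7% (15.9 to 17.5%) of coding starts. Positions in both the +1 window and a second one, the 75 bp that end just short of +350 bp, with none from -200 to +50 bp, were found at 121 members (0.972%, 0.814 to 1.16%) and at 193 coding starts (2.31%, 2.01 to 2.65%). No position at all within 2000 bp was found at 1127 members (9.05%), of which 146 were on chromosome 15 and 87 had none within 50 kb either. Density in the second window was 1.14 per kb, a log2 ratio to the flanks of 0.087 ± 0.18 (permutation p = 0.0374, adjusted 0.0665).

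The most frequent distance between neighbouring positions was similar in all sets. Among neighbouring positions within 2000 bp of members outside islands (41827 pairs), this distance, searched between 100 and 300 bp after smoothing, was 184 bp. It was 184 bp near coding starts outside islands, 189 bp near members in islands (1578 pairs) and 185 bp near coding starts in islands. In the same order of sets the median distances were 360, 347, 323 and 406 bp. Distances of 165 to 204 bp made up 13.9% of the pairs near lncRNA starts outside islands and 15.7% near coding ones. Distances under 60 bp made up 11.7% and 11.6% of these pairs, and 12.4% near members in islands. Fragments of 150 bp this close would overlap, so counts of positions can exceed counts of nucleosomes.

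The step with the highest density within 200 bp of the start differed between classes of first exon length. This split was chosen after the profiles were seen and carries no test. Among members outside islands with several exons, those with a first exon under 100 bp (n = 3140) were densest over the start itself, with 1.82 per kb from 0 to 25 bp (95% Poisson interval 1.54 to 2.15) and 0.854 per kb in the step that ends at 150 bp (0.661 to 1.08). With first exons from 100 bp to under 175 bp (n = 2875) the maximum lay at 25 to 50 bp, at 1.82 per kb. With first exons from 175 bp to under 350 bp (n = 2822) it lay in the step that ends at 150 bp, at 1.7 per kb, and with 350 bp or more (n = 1940) in the same step, at 1.65 per kb. Relative to the GC expectation these maxima were 1.38, 1.26, 1.2 and 1.21, in order of exon length, and the highest flank steps of the same classes were 1.25, 1.24, 1.22 and 1.28. The maxima of the classes with first exons of 175 bp or more thus lie within the range of their flanks.

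Protein-coding starts outside islands kept their maximum in place over the same classes. It was in the step that ends at 150 bp for first exons under 100 bp (3.47 per kb), from 100 bp to under 175 bp (3.42 per kb) and from 175 bp to under 350 bp (3.07 per kb). With 350 bp or more it was in the step that begins at 100 bp and lower, at 2.08 per kb. Where the first exon was under 100 bp, so that the +1 window lay beyond it, the window had 2.64 times the flank density at coding genes and 0.9 times at lncRNA genes. Single-exon members (n = 1671) had 0.952 times their flank density at the start and 1.16 times in the +1 window.

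**Figure D4:**
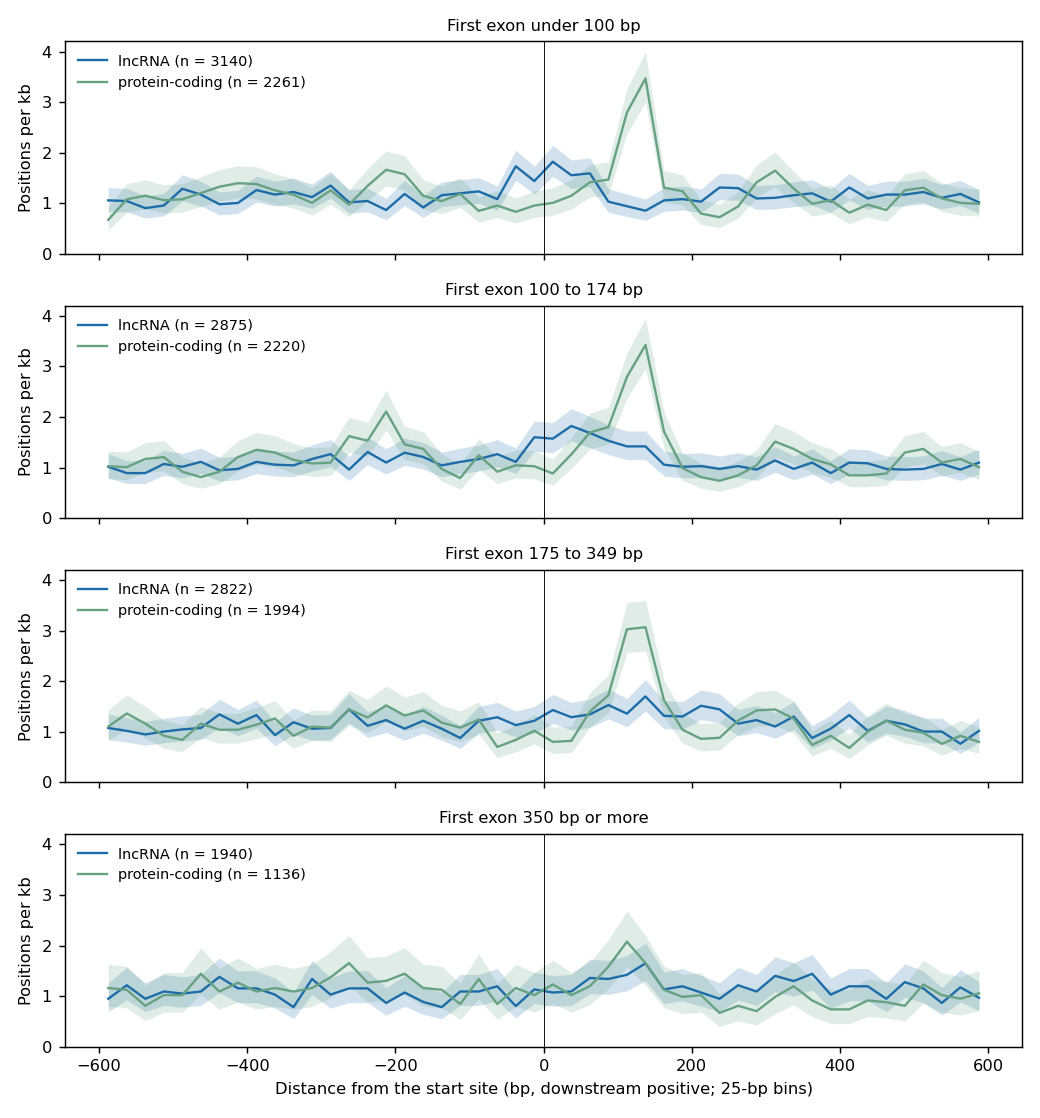
Positions per kb against distance from the start in 25-bp bins, outside islands, for genes with several exons in 4 classes of first exon length; shading gives 95% Poisson intervals. The coding maximum stays between 100 and 150 bp, whereas the lncRNA maximum lies at 0 to 25 bp with the shortest first exons and ends at 150 bp with first exons of 175 bp or more.

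Outside islands, members were compared by annotation support and by gene context. Members with transcript support level 1 (n = 798), the best supported in the annotation, had 1.11 times their flank density in the +1 window and the others 1.18 times. By level, the ratio was 0.931 at level 3 (1.01 per kb, 95% Poisson interval 0.876 to 1.17) and 1.36 at level 4 (1.57 per kb, 1.26 to 1.93), a difference that was not tested. The log2 difference of level 1 from all others was -0.28 ± 1.06 (SD, n = 22, permutation p = 0.228, adjusted 0.281), a spread over chromosomes wider than the difference. From pooled counts it was -0.082, and level 1 had 77 positions in the +1 window over all chromosomes. Against coding starts of the same support level the difference was -1.37 ± 1.02 (permutation p = 1e-05). From pooled counts the ratios to the flanks were 1.11 for these members and 2.61 for these coding starts. Members between protein-coding genes (n = 8576) had 1.23 times and those inside a coding gene on either strand (n = 3872) 1.03 times their flank density, a log2 difference of 0.26 ± 0.75 that did not pass (permutation p = 0.117, adjusted 0.17). Of the latter, members antisense to the coding gene (n = 2744) had 1.03 times and those on its strand (n = 1035) 1.06 times. The flanks of these groups differed by 0.053 ± 0.15 (permutation p = 0.116, adjusted 0.17). Against the GC expectation this flank difference was 0.094 (permutation p = 0.00098).

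At the 5-kb limit of the rule and outside islands, lncRNA starts 5 to 6 kb from a coding start (n = 300) had 0.793 times their flank density in the +1 window, from 18 positions, and those 4 to 5 kb away, just outside the rule (n = 328), had 1.3 times, from 34 positions. Outside the rule, starts 1 to 4 kb from a coding start (n = 1266) had 1.03 times, from 101 positions, and those within 1000 bp (n = 1349) 1.89 times, from 157.

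Inside islands the lncRNA starts did have a gap. Density was 0.39 per kb from -200 to +50 bp (77 positions, 95% Poisson interval 0.308 to 0.488), against 0.877 per kb in the flanks. The lowest steps, from -50 to -25 bp and from 0 to 25 bp, held 3 positions each (0.152 per kb, 0.0314 to 0.444), and density on the upstream side was back at 1.12 per kb in the step that begins at -200 bp (22 positions). The log2 ratio was -1.32 ± 0.99 (SD, n = 22), below 0 on each of the 22 chromosomes (permutation p = 1e-05, adjusted 4e-05). The ratio of the pooled counts was 0.445. Against the GC expectation it came to -0.91 ± 1.06 (permutation p = 6e-05). A difference from coding starts in islands was not detectable: lncRNA minus coding was -0.21 ± 1.05 on the log2 scale (permutation p = 0.357, adjusted 0.408), and the ratio of pooled counts was 0.449 for the coding set. The 696 island members between protein-coding genes stood at 0.489 times their flanks from 70 positions, and the 68 antisense to a coding gene at 0.262 times from 6. Against members outside islands the difference was -1.48 ± 0.97, negative on 22 of 22 chromosomes (permutation p = 1e-05, adjusted 4e-05).

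In the +1 window the island members were less dense than coding genes, and their own excess over the flanks did not pass the test. The highest step within 200 bp of the start lay from 75 to 100 bp, at 1.32 per kb (26 positions, 0.861 to 1.93), followed by 0.355 per kb in the steps on either side of 250 bp, and the coding maximum in islands was 2.66 per kb in the step that ends at 150 bp. Single 25-bp steps of the island members' flanks ranged from 0.355 to 1.32 per kb, so both values lie within the range of the flanks. In the +1 window the island members had 0.997 per kb (59 positions, 0.759 to 1.29) and coding starts 1.93 per kb. That window again holds the coding maximum and not that of the lncRNA starts. The log2 ratio to the flanks was 0.29 ± 1.00 for lncRNAs, higher on 13 of 22 chromosomes (permutation p = 0.182, adjusted 0.243), and 1.33 ± 0.21 for coding genes. The difference of -1.03 ± 0.99 was negative on 18 of the 22 (permutation p = 9e-05, adjusted 0.000288). It was -0.60 against coding starts with no other coding gene's start within 5 kb (permutation p = 0.0123). With the window narrowed to the 25 bp just short of +150 bp, the island members' own ratio was 0.75 (permutation p = 0.00452), and with the GC expectation 0.51 (permutation p = 0.0189). It was 0.080 with flanks from 2000 to 5000 bp (permutation p = 0.712), 0.070 without members near another lncRNA start (p = 0.771), 0.099 with the starts of all transcripts (p = 0.782) and 0.11 with looser islands (p = 0.571). The second window had 0.591 per kb, a log2 ratio of -0.57 ± 1.16 (permutation p = 0.0322, adjusted 0.0644).

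Island starts were uncommon among the members and unevenly spread over their kinds. The rule leaves out lncRNA starts within 5 kb of a coding start, so these shares do not describe all lncRNA genes. The coding starts had no such limit. A CpG island covered 5.96% of members (95% Wilson interval 5.57 to 6.38%), against 56.2% of protein-coding starts. By symbol, islands covered 13 of 18 host genes of small nucleolar RNAs, 19 of 65 host genes of microRNAs, 140 of 2096 LINC genes, 45 of 789 genes with an antisense name and 455 of 9584 genes that carry only an Ensembl identifier. Among members between protein-coding genes islands covered 696 of 9272 (7.51%), and among those inside a coding gene 93 of 3965 (2.35%). Where another lncRNA gene started within 2000 bp, as at 1210 members, the share was 21.4%. Members without any position within 2000 bp were more frequent in islands, at 164 of 789 (20.8%, 18.1 to 23.8%), than outside (9.05%). Of the 164, 21 had none within 50 kb either and 23 (14.0%) were on chromosome 15, which held 44 of the 789 island members. Among coding starts in islands the share was 10.7%.

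Well-known lncRNA genes were looked at one by one from lists grouped by role. Among 44 listed members in islands, all 44 had no position from -200 to +50 bp and 1, PVT1, had a position in the +1 window, at 101 bp. Over all members in islands 721 of 789 (91.4%) had none from -200 to +50 bp, and 57 (7.22%) had a position in the +1 window. No list was tested against the shares over all members. Of 75 listed members outside islands, 58 had none from -200 to +50 bp and 11 had a position in the +1 window, against 74.7% and 8.98% of all members outside islands.

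Among RNAs of nuclear bodies and other structural roles, MALAT1, which resides in nuclear speckles, started outside an island and had positions only upstream, at -868 and -788 bp. NORAD, a cytoplasmic RNA that binds PUMILIO proteins, started in an island with positions at -1360, -1204, -296 and -260 bp. MIAT had positions at -1814, -801, -262, 441 and 1669 bp. None of these starts, nor NEAT1, had a position from -200 to +50 bp or in the +1 window. Over all members, 74.7% outside islands and 91.4% in islands had none from -200 to +50 bp. The +1 window held a position at only 8.98% and 7.22%.

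Host genes of small nucleolar RNAs carry these RNAs in their introns. SNHG5, in an island, had positions at -1818 and -422 bp, SNHG7 at -1089 bp and SNHG8 at -1220 bp. SNHG6, outside islands, had positions at -1699 and -137 bp. No island member of this group of 13 had a position in the +1 window, and 3 of the 13 had none within 2000 bp. Over all members in islands these shares were 7.22% and 20.8%. Among microRNA host genes, MIR1-1HG had positions at -1976, -1616, -1228, -1204 and 69 bp, and MIRLET7BHG had 7 within 2000 bp. In islands, MIRLET7A1HG had 1 position, at -1944 bp, and MIRLET7IHG had none. The +1 window held a position at 6 of 46 microRNA host genes outside islands and at 0 of 19 in islands. Over all members it did at 8.98% outside islands and 7.22% in islands.

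Of the genes linked to growth and stress, CYTOR had no position within 2000 bp, DANCR, in an island, had positions at -1906, -1332, -397 and -370 bp, and CCAT2 had positions at 302, 1387, 1620 and 1782 bp. The imprinted genes H19 and MEG3, which are expressed from the maternal allele, started outside the islands as defined here. H19 had positions at -1525, -157, 21 and 544 bp, so the start itself was covered, and MEG3 at -1157, -609, -385, -358, 738 and 1279 bp. MEG8 had 9 and MEG9 had 8 positions within 2000 bp. None of the 9 imprinted members had a position in the +1 window, against 8.98% of all members outside islands and 7.22% in islands. In the HOX clusters, HOXA-AS2 had positions at -1999, 740, 1566 and 1717 bp and HAGLROS had 1 of its 6 positions at 5 bp from the start.

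Among genes of the eye and nervous system, RMST had no position within 2000 bp and LINC00461 had 2, at -1504 and -1104 bp. DLX6-AS1 had 7 positions, of which 1 lay downstream, at 27 bp. HAR1A, in an island, had 4 positions, all upstream, the nearest at -765 bp. None of the 6 members of this list had a position in the +1 window, where the shares over all members were 8.98% outside islands and 7.22% in islands.

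PCA3 is a prostate lncRNA. After a position at -1362 bp its next ones lay at 129, 306, 497, 659 and 841 bp, with steps of 162 to 191 bp. Its further steps ran from 67 to 302 bp, and 13 positions fell within 2000 bp in all. CARMN, a lncRNA of heart and smooth muscle, had 17, the most of the listed members outside islands, with 1 position at -89 bp and 1 at 94 bp. PCGEM1 and SCHLAP1, both of prostate tissue, had 2 and 3. These patterns rest on single positions and have no error.

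**Figure D5:**
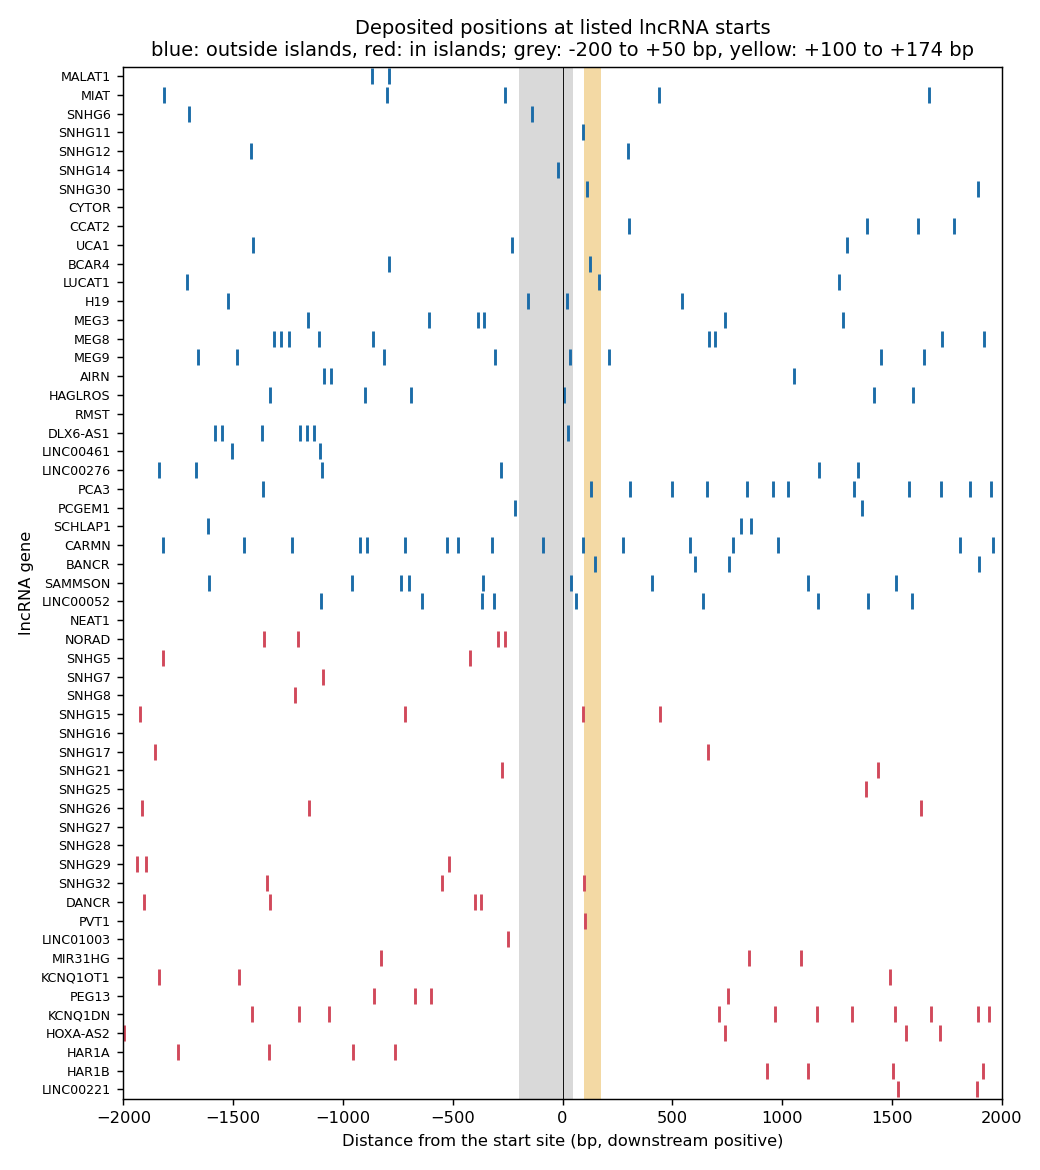
Deposited positions (ticks) within 2000 bp of the start of 55 listed lncRNA genes, 29 outside islands and 26 in islands, with host genes of microRNAs other than MIR31HG not drawn; the horizontal axis is the distance from the start in bp. The grey band from -200 to +50 bp is empty at every island gene drawn, and PCA3 shows 5 ticks from 129 to 841 bp.

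The members with the most positions were not typical. Outside islands they were ENSG00000261600 on chromosome 2 and LINC01262 on chromosome 4 with 48 positions each within 2000 bp, ENSG00000272566 and LINC00955 on chromosome 4 with 39 each, and ENSG00000254913 on chromosome 1 with 37. In islands they were CROCCP2 (39) and ENSG00000290849 (34) on chromosome 1, ENSG00000287168 (33) and ENSG00000290549 (17) on chromosome 9, and ENSG00000261466 (16) on chromosome 16. The span within 2000 bp of a start has room for 26 fragments of 150 bp without overlap. Of the members, 12 members outside islands and 3 in islands exceeded that number, and their counts are uncertain as counts of nucleosomes.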

How the data were processed

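Nucleosome positions of interphase ARPE-19 cells were taken from the 1 list the authors deposited for 2 batches. Per the file headers, a row gives chromosome, start and end; every row was 1 bp long, and the position, its only value, is a deposited coordinate of no other unit, with no height or score. Per the submitters' processing notes, Bowtie2 and the builds hg38 and GRCh38 were used; the caller, its threshold and any pooling of batches are not given in the sources used here. Of 2634347 rows, 4 repeated another and were removed.

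Starts came from GENCODE 44, with the MANE Select or canonical transcript for coding genes. In hg38, CpG islands were runs over 500 bp that maximised a sum scoring 17 at a CpG and -1 at any other base, kept where GC reached 55% and the CpG ratio, observed over expected, exceeded 0.65 (16509 islands). Repeat masking was not used. Counts in strand-oriented windows (start, -200 to 50 bp; +1 window, 100 to 174 bp; second window, 275 to 349 bp) were divided by determined bases. Per chromosome, 0.5 position was added to each count before the log2 ratio, and the mean and SD over 22 chromosomes were tested by randomly flipping signs (permutation, both sides, 100000 draws). The lowest p-value this can give is 1e-05, and p-values had Benjamini-Hochberg adjustment over 16 comparisons. The procedure was also run on simulated counts, drawn independently at the flank densities. These had no clustered positions and no effect of GC content, so they cannot show how the test behaves with either. Counts per chromosome are small in islands and at support level 1. There the added 0.5 weighs on the values per chromosome, so ratios of pooled counts are given too. In islands the start log2 ratio was -1.32 as a mean over chromosomes and -1.17 from pooled counts. The GC expectation used bins of 2% GC.

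Members, windows, comparisons and gene lists were chosen with earlier results of these data known; the GC classes, support level matching and first exon classes were added after the profiles were seen. Named genes are up to 4 per list in list order and, in each class, the 5 with the most positions; others were named after their values were seen. Alternatives covered the GC expectation, merging, sparse regions, chromosomes 9 and 15, windows, flanks, distance, neighbours, transcripts, islands and pooling. Scripts ran in Python 3.11.15 with numba 0.67.0, pandas 2.3.3, scipy 1.17.1, matplotlib 3.10.9 and numpy 2.4.6.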

Additional observations from a re-analysis of the deposited data

Results flagged for a closer look

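Some rows lay outside the comparisons, which cover chromosomes 1 to 22. Chromosome X held 74465 rows. There, 241 lncRNA starts chosen by the same rule lay outside islands, with 0.664 positions per kb from -200 to +50 bp (40 positions), 1.05 per kb in the +1 window (19 positions) and 0.465 per kb in the flanks, and the 15 starts in islands had 0 positions in either window. A further 1388 rows lay on 12 unplaced or alternate sequences, where no lncRNA start was examined. No difference between chromosome X and the autosomes was tested.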

How the results depend on the processing

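Of 201 alternative values over 16 comparisons, 185 had a test: 150 kept direction and side of the threshold of 0.05 (unadjusted), 16 reversed, 10 no longer passed and 9 passed newly. The other 16, from counts pooled over chromosomes, moved by less than 1 SD, with 1 change of sign, in the +1 difference between members in and outside islands (0.055, and -0.045 pooled). The lower +1 window at lncRNA than at coding starts outside islands kept its sign in every setting run and its call in all but starts under 45% GC (-0.37). The cause of the changes below was not tested. With the GC expectation the start ratio outside islands was -0.069, the +1 window -0.0014 and the second window -0.028; the +1 window in islands was 0.51, its difference from outside 0.52, the second window in islands -0.44 (permutation p = 0.107) and intergenic flanks 0.094. The second window outside islands was 0.085 after merging, 0.084 without chromosome 15, 0.072 without chromosome 9, 0.071 with flanks from 2000 to 5000 bp, 0.069 for members over 10 kb away and 0.084 without members near another lncRNA start; without these the second window in islands was -0.30. Narrowed to 25 bp, the +1 window in islands was 0.75. The start difference from coding genes outside islands was 0.11 with the starts of all transcripts, -0.042 with looser islands and, in alternatives added after the data were seen, -0.036 under 45% GC, -0.10 at 45 to 55% GC and -0.13 at support level 1. In islands it was -0.75 with all transcripts, 0.35 from -150 to 0 bp and 0.069 against isolated coding starts. The +1 difference between members in and outside islands was -0.14 with the farther flanks, -0.00048 over 10 kb, -0.16 without neighbours, -0.20 with all transcripts and -0.13 with looser islands. The flank ratio to coding genes was -0.0048 with looser islands and 0.024 against isolated starts. Intergenic flanks were 0.072 without empty windows, 0.068 with farther flanks, -0.048 with all transcripts and 0.069 with looser islands. No paired analysis was possible because the list does not separate the batches. Read depth is unknown, and in islands each window near the start held under 100 positions.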

Other observations

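By symbol, the +1 window stood at 1.23 times the flank density at 2096 LINC genes, 1.16 times at 9584 genes with only an Ensembl identifier, 1.09 times at genes with an antisense name and 1.57 times at 65 microRNA host genes, the last from 7 positions. These groups join members in and outside islands and were not tested. Outside islands, the window from -200 to +50 bp was 1.06 times the flanks for members 5 to 20 kb from a coding start, 1.09 times at 20 to 100 kb and 1.21 times beyond 100 kb. With the GC expectation the order was the other way, at 0.98, 0.962 and 0.942 times. The +1 window was 1.25 times the flanks at 6341 members on the plus strand and 1.09 times at 6107 on the minus strand, a difference that was not tested.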
